A study of Homo sapiens with 10 samples.

Results

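The phagocyte NADPH oxidase and its Rac partners were read here as 9 genes (CYBA, CYBB, NCF1, NCF4, RAC1, RAC2, NOX1, NOX4 and NOX5), taken by symbol from the 27142 genes of the expression table. The cells were the parental 697 line, human leukaemic cells at the pre-B stage, in every RNA library. RNA was sequenced from 2 TPA libraries and 2 control libraries. TPA (12-O-tetradecanoylphorbol-13-acetate) is a phorbol ester that activates protein kinase C; it was used at 0.5 µg/ml, with a duration given only as a range of 0 to 24 h. The other 6 samples of the series, ChIP-seq and input DNA, were not analysed here.

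The oxidase moves electrons from NADPH across a membrane to oxygen and makes superoxide. Its membrane part pairs the catalytic chain CYBB (gp91phox, NOX2) with CYBA (p22phox), the chain that stabilises it. On activation cytosolic factors, among them NCF1 (p47phox) and NCF4 (p40phox), join this pair together with a Rac GTPase in its GTP-bound form. In neutrophils, phorbol esters are a standard trigger of this burst, because protein kinase C phosphorylates NCF1. RAC1 is found in most cell types and RAC2 mainly in blood cells, and both also direct actin assembly. NOX1, NOX4 and NOX5 are catalytic relatives of CYBB used mostly outside phagocytes.

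Promoters are shown for 3 oxidase genes because their transcript levels lie at opposite ends of the scale: CYBA was among the well-expressed genes, while CYBB and NCF1 were close to 0. Each is the 250 bases before the gene's annotated start, 5′ to 3′ on the gene's strand, from RefSeq on GRCh38.p14, whereas the expression values were made on hg19. Capitals mark GAGGAA or its reverse complement, the core letters read by PU.1, the SPI1 product, a factor known to drive CYBB and NCF1 in myeloid cells.
CYBA (chr16:88651054-88651303, minus strand): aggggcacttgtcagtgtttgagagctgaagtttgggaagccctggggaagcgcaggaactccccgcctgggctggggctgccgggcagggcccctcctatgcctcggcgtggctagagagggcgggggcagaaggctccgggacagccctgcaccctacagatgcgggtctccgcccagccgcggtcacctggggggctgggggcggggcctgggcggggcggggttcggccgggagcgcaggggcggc
CYBB (chrX:37779809-37780058, plus strand): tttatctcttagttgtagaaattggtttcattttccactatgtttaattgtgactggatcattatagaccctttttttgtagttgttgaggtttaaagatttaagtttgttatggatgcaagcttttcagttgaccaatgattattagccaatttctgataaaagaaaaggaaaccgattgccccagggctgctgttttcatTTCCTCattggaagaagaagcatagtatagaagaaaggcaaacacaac
NCF1 (chr7:74773761-74774010, plus strand): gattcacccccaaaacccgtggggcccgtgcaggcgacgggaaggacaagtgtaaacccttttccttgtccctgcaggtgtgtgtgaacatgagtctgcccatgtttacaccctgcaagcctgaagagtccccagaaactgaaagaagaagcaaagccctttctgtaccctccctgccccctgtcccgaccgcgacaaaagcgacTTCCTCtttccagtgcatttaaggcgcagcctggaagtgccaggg
The CYBA window had 73.6% G and C and 18 CpG dinucleotides. The CYBB window had 34.0% and 1, and the NCF1 window 56.4% and 9, against medians of 58.0% and 11 over 27305 promoters. The PU.1 core, searched on both strands, began 48 bases before the start in CYBB and 45 bases before it in NCF1, and it was not found in the CYBA window. It was present in 23.4% of all promoter windows of this length. Entries were found for 6 of the 9 genes, and none was used for RAC1, RAC2 and NCF4. Of the windows not shown, NOX5 held the core 217 bases before the start, and NOX1 and NOX4 did not hold it. Letters read by GATA, AP-1, EGR and NF-kappaB factors were also searched, and their matches are not in capitals. GATA had 2 matches in CYBB, 3 in NOX1 and 2 in NOX5. NF-kappaB had 1 match, in CYBA, 110 bases before the start. No AP-1 or EGR match was found. GATA letters were present in 46.5% of all promoter windows and NF-kappaB letters in 22.1%.

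Each gene had 1 value per library in RPKM, reads scaled to gene length and library size, so levels of different genes can be set side by side. Summed RPKM per library ranged over 349438 to 388846. Read totals are unknown. Relative depth was estimated from the commonest ratio of control replicate 1 to each other library, among genes with low values in both. If that ratio comes from equal read counts, the other libraries had 91.3% to 97.7% of the depth of control replicate 1. All 12 B-lineage markers passed the filter on low values, and 6 rose and 6 fell. MS4A1, counted among the 6 that rose, passed the filter through the TPA libraries alone. MS4A1 (CD20) averaged 291 RPKM in TPA and 0.736 RPKM in control, while the pre-B genes VPREB1 and IGLL1 averaged 13.6 and 8.97 RPKM in TPA and 347 and 457 RPKM in control. The list summed to 1685 and 1886 RPKM in TPA and 1596 and 1573 RPKM in control. Different genes carried these sums: CD79A had 823 and 893 RPKM in TPA and 218 and 199 RPKM in control. Of 20 myeloid and phagocyte markers, 18 stayed under 0.5 RPKM in every library, and S100A8, S100A9, CD163, MS4A3 and FCN1 were listed at 0 throughout. The myeloid list summed to 13.1 and 16.4 RPKM in TPA, nearly all from CD68 and CSF1R. It summed to 1.36 and 2.11 RPKM in control, where these genes made up a smaller share. Both genes passed the filter through the TPA libraries alone. These marker values moved beside the results that follow, and their part in them was not tested. In bulk RNA, a change in the makeup of the cells and a change per cell cannot be told apart.

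The transcript of the catalytic chain was near 0 while that of its partner was abundant. CYBA (16q24.2) had 109 and 96.4 RPKM in TPA libraries and 101 and 84.6 RPKM in control libraries. These values overlapped between the groups. CYBB (Xp21.1-p11.4) had 0.051 and 0.027 RPKM in TPA and 0.040 and 0.056 RPKM in control, and all 4 values lay far below the 1 RPKM that a gene had to reach in 2 libraries to be tested. CYBA exceeded CYBB 2133-fold and 3572-fold in TPA and 2532-fold and 1511-fold in control. These folds divide by CYBB values near the floor, so their exact size and their spread are not resolved. No test was drawn from the ratio of the 2 genes, since CYBB lay below the filter and the ratio with 1 added follows CYBA alone.

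Of the cytosolic factors NCF4 and NCF1, the first was abundant and the second was listed near 0. NCF4, which binds a phosphoinositide of phagosome membranes, had 70.0 and 79.9 RPKM in TPA and 69.0 and 57.8 RPKM in control. NCF1, the organiser that bridges the other cytosolic factors to CYBA, had 0.210 and 0.064 RPKM in TPA and 0.132 and 0.136 RPKM in control. Its near-identical copies NCF1B and NCF1C reached at most 0.015 and 0.045 RPKM. How reads shared by such copies were treated is not given in the sources used here, so the level of NCF1 is uncertain.

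The relatives of CYBB were near 0 as well. NOX1 had 0.092 and 0.187 RPKM in TPA and 0.243 and 0.185 RPKM in control, with overlapping groups. NOX4 and NOX5 were listed at 0 in all 4 libraries; the NOX5 row carried a non-coding RefSeq accession (NR_033672). With NOX3, DUOX1 and DUOX2 added, the 7 catalytic genes of the family summed to 0.522 and 0.613 RPKM in TPA and 0.376 and 0.329 RPKM in control, and no single value exceeded 0.243 RPKM.

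**Figure D1:**
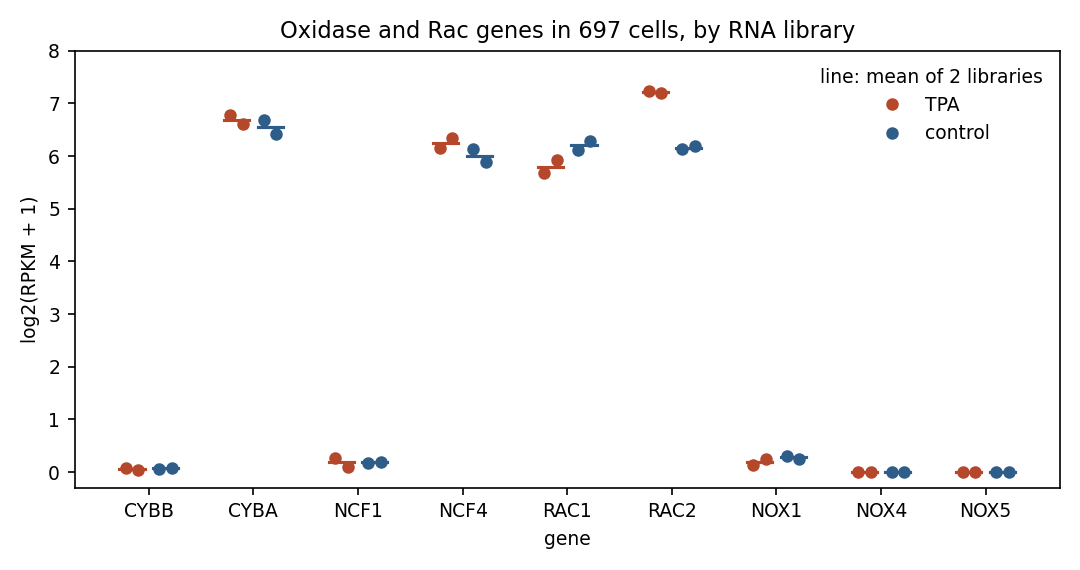
Level of each of the 9 genes as log2(RPKM + 1) in each RNA library, with TPA (red) left of control (blue), points for libraries and lines for the mean of 2. CYBA, NCF4, RAC1 and RAC2 lie high, CYBB, NCF1, NOX1, NOX4 and NOX5 lie near 0, and RAC2 shows the widest gap between TPA and control.

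Of the 9 genes, 4 passed the filter (CYBA, NCF4, RAC1 and RAC2) and 5 did not. The 4 were tested in a limma fit across 12159 genes, on log2(RPKM + 1). With p adjusted by Benjamini-Hochberg and a threshold of 0.05, 1 of them rose and 1 fell. Over all genes tested 58.2% passed, 28.4% by rising and 29.8% by falling, so a share of this size was near the background. TPA and control libraries were fully separated for 3 of the 4 genes, against 79.8% of all genes tested.

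RAC2 (22q13.1) rose with TPA. It had 150 and 147 RPKM in TPA libraries and 69.4 and 71.6 RPKM in control libraries, and the groups lay well apart. Its means were 148 ± 2.31 RPKM in TPA and 70.5 ± 1.59 RPKM in control (SD, n = 2 each), a 2.10-fold difference. On the log2 scale of RPKM + 1, which understates the change of low genes, the fold change was 1.06 (SE 0.129, 95% interval 0.76 to 1.36, adjusted p = 0.000233). Its change was larger in size than that of 78.7% of genes tested, and its mean level higher than that of 95.9%.

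RAC1 (7p22.1) was lower with TPA by a small margin. It had 50.1 and 59.8 RPKM in TPA and 68.4 and 77.3 RPKM in control, and the groups did not overlap. It averaged 54.9 ± 6.82 RPKM in TPA and 72.8 ± 6.25 RPKM in control (SD, n = 2 each). The log2 fold change was -0.40 (SE 0.149, 95% interval -0.75 to -0.06, adjusted p = 0.0472). This call was lost without TPA replicate 1 (adjusted p = 0.178), without control replicate 1 (0.102), without control replicate 2 (0.320) and with no filter on low values (0.0857).

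CYBA and NCF4 did not pass. CYBA averaged 103 ± 8.74 RPKM in TPA and 92.9 ± 11.8 RPKM in control (SD, n = 2 each), with a log2 fold change of 0.14 (95% interval -0.20 to 0.49, adjusted p = 0.436). NCF4 averaged 75.0 ± 6.97 RPKM in TPA and 63.4 ± 7.90 RPKM in control, without overlap, with a log2 fold change of 0.24 (95% interval -0.11 to 0.59, adjusted p = 0.205). After quantile normalization NCF4 passed, with a log2 fold change of 0.37 (adjusted p = 0.0459). With 1 library left out, CYBA ranged over 0.02 (without control replicate 2) to 0.27 (without control replicate 1) and NCF4 over 0.11 to 0.37 (without the same libraries), and CYBA was 0.31 after quantile normalization. The intervals leave room for modest changes in both genes. In the RefSeq annotation NCF4 is overlapped by NCF4-AS1, which was not analysed here, and the use of strand in counting is not given.

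The order of levels changed with treatment. With TPA, RAC2 was highest, then CYBA, NCF4 and RAC1, and no library value of one overlapped the next. In control CYBA led, followed by RAC1, RAC2 and NCF4. There the RAC1 values overlapped those of both RAC2 and NCF4, and the lower RAC2 library exceeded the higher NCF4 library by less than the spread of NCF4. Far below came NOX1 and NCF1, which overlapped with TPA but not in control, then CYBB, and NOX4 and NOX5 at 0.

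RAC1 and RAC2 were near equal in control and unequal with TPA. RAC2 was 2.99 and 2.45 times RAC1 in the TPA libraries, against 1.01 and 0.927 times in the control libraries. On the log2 scale with 1 added, this ratio was 1.42 in TPA and -0.04 in control, a difference of 1.46 (exact two-sided permutation test, p = 0.333, the smallest p that this design allows). RAC3, a further Rac gene found mainly in brain and outside the 9 genes, had 2.04 and 4.33 RPKM in TPA and 15.2 and 18.7 RPKM in control. It fell, with a log2 fold change of -2.15 (adjusted p = 0.000184 in the limma fit). RAC2 therefore made up 74.2% and 69.6% of summed Rac RPKM in TPA and 45.4% and 42.7% in control. The Rac sum itself was 202 and 211 RPKM in TPA and 153 and 168 RPKM in control (exact permutation test, p = 0.333).

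**Figure D2:**
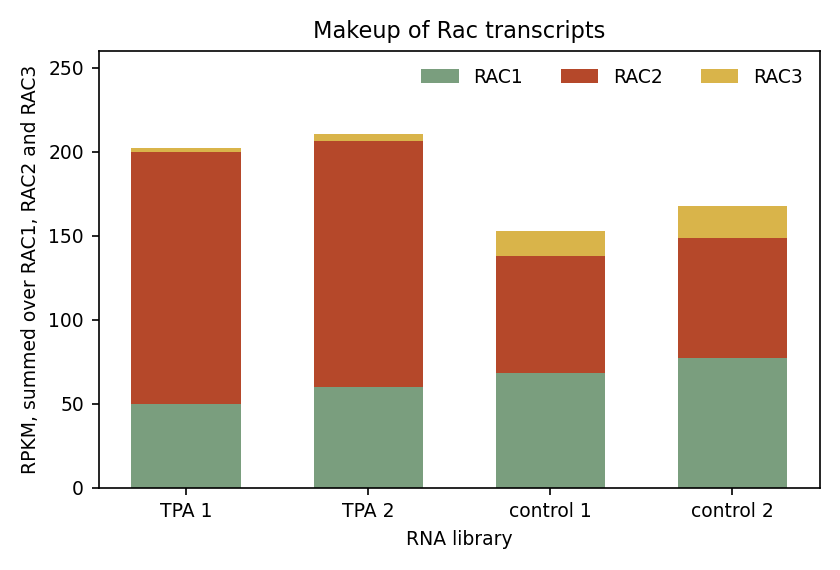
RPKM of RAC1 (green), RAC2 (red) and RAC3 (yellow) stacked for each RNA library, TPA libraries left of control libraries. RAC2 makes up 74.2% and 69.6% of the stack in TPA and 45.4% and 42.7% in control, and RAC3 shrinks to 1.01% and 2.05% in TPA against 9.91% and 11.2% in control.

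The genes whose levels over the 4 libraries lay nearest to RAC2 were CORO1A, PRKAR1A and CHD4, with Euclidean distances of 0.141, 0.216 and 0.253 on the log2(RPKM + 1) scale. CORO1A encodes coronin 1A, an actin-binding protein of blood cells. CORO1A had 140 and 146 RPKM in TPA and 72.1 and 75.9 RPKM in control. PRKAR1A had 136 and 161 RPKM in TPA and 74.1 and 73.1 RPKM in control. CHD4 had 152 and 126 RPKM in TPA and 67.8 and 65.7 RPKM in control. For scale, 28.4% of all genes tested rose. These genes were picked by their likeness to RAC2 in level, and a shared role was not tested.

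Other parts of the oxidase machinery were read from a list of 14 relatives and partners, of which 6 were tested. Of these 2 rose (RAP1A and C17orf62), 1 fell (RAC3) and 3 did not pass (NOXO1, TXNDC11 and POLDIP2), with a median log2 fold change of -0.22 against -0.02 over all genes tested. After median-of-ratios scaling 3 fell, and with no filter the median was 0.02. RAP1A, a small GTPase that copurifies with the membrane part of the oxidase, had 41.8 and 50.4 RPKM in TPA and 11.1 and 14.2 RPKM in control. C17orf62, now CYBC1, encodes a chaperone of the CYBB and CYBA pair. It had 39.0 and 40.3 RPKM in TPA and 31.3 and 28.7 RPKM in control (log2 fold change 0.39, adjusted p = 0.0338), a call lost when any 1 library was left out. NOXO1 and NOXA1, which serve NOX1 as organiser and activator, had at most 1.27 and 0.300 RPKM.

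**Figure D3:**
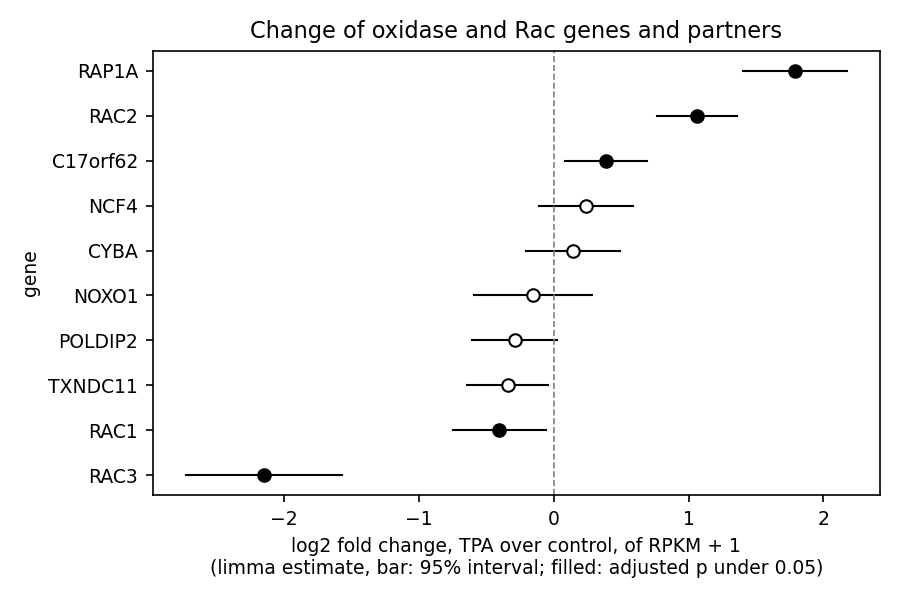
Log2 fold change of RPKM + 1, TPA over control, for the tested oxidase and Rac genes and their partners, with 95% intervals from limma and filled points at an adjusted p under 0.05. RAP1A and RAC2 lie highest and RAC3 lowest, while the intervals of NCF4 and CYBA span 0.

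Genes listed as Rac exchange factors, a class that loads GTPases with GTP, changed in both directions. Whether each one acts on Rac in these cells was not tested. Of 22 tested among 27, 10 rose, 6 fell and 6 did not pass (72.7% passed, against 58.2% of all genes), with a median log2 fold change of 0.17. The median was 0.03 with no filter and 0.05 with a filter at 5 RPKM. KALRN had 10.6 and 9.59 RPKM in TPA and 0.907 and 0.889 RPKM in control, and it was tested only because it reached the filter in the TPA libraries. ARHGEF2, a microtubule-bound exchange factor, had 195 and 196 RPKM in TPA and 32.0 and 35.9 RPKM in control. VAV2 and DOCK1 fell, with log2 fold changes of -1.27 and -0.91. VAV1, the Vav protein of blood cells, did not pass, with 13.7 and 16.9 RPKM in TPA and 14.0 and 14.9 RPKM in control.

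Genes that switch Rac off or hold it in the cytosol changed in both directions, with more rises than falls among those tested. Of 15 tested among 23 GTPase-activating proteins and GDIs, 9 rose, 2 fell and 4 did not pass (73.3% passed, against 58.2% of all genes), with a median log2 fold change of 0.57. With no filter 10 of 22 rose and the median was 0.21. Of the 9, CHN2 reached the filter only in the TPA libraries. ARHGAP25, a Rac GTPase-activating protein of blood cells, had 76.4 and 83.9 RPKM in TPA and 6.48 and 6.31 RPKM in control. ARHGAP9 rose too, with a log2 fold change of 1.44. RACGAP1, which acts in cytokinesis, fell to 6.97 and 7.64 RPKM in TPA, against 43.2 and 50.1 RPKM in control. The GDI gene ARHGDIA fell, with a log2 fold change of -1.11, whereas ARHGDIB, the GDI of blood cells, had 495 and 589 RPKM in TPA and 494 and 517 RPKM in control and did not pass.

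Among Rac effectors and actin regulators, 25 of 29 could be tested: 9 rose, 6 fell and 10 did not pass (60.0% passed, near the 58.2% of all genes), with a median log2 fold change of 0.31. After quantile normalization 15 rose and 7 fell, and with no filter 8 rose, 6 fell and the median was 0.11. BAIAP2, which links Rac to the WAVE complex, had 4.68 and 3.81 RPKM in TPA and 0.141 and 0.200 RPKM in control, and it too reached the filter only in the TPA libraries. The LIM kinase genes, whose products phosphorylate cofilin, moved apart: LIMK1 rose with a log2 fold change of 1.58 and LIMK2 fell with -1.29. PAK1, a kinase bound by active Rac, fell to 8.79 and 10.6 RPKM in TPA, against 20.0 and 21.5 RPKM in control.

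Kinases and lipases that prime or activate the oxidase mostly did not pass. Of 23 tested among 26, 3 rose, 5 fell and 15 did not pass (34.8% passed, against 58.2% of all genes), with a median log2 fold change of 0.02. After median-of-ratios scaling 6 rose and 6 fell. PIK3CG, the phosphoinositide kinase coupled to G-protein receptors, and BTK, a B-cell receptor kinase, rose with log2 fold changes of 1.77 and 3.03. PAK1, which is in this list as well as among the effectors, had the smallest p of the genes that fell. SYK and AKT1 also fell, with log2 fold changes of -1.08 and -0.91. PRKCB, the protein kinase C gene linked to the neutrophil burst, stayed below the filter, with 0.121 and 0.623 RPKM in TPA and 0.190 and 0.447 RPKM in control. PRKCD did not pass, with 19.1 and 18.3 RPKM in TPA and 16.1 and 16.8 RPKM in control.

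Transcription factors known to act on phagocyte oxidase genes were read beside the promoters shown above. SPI1 was low throughout, with 0.419 and 0.399 RPKM in TPA and 0.456 and 0.500 RPKM in control. IRF8, a partner of PU.1 in myeloid cells and B cells, had 16.7 and 16.8 RPKM in TPA and 4.07 and 5.30 RPKM in control. GFI1, a repressor, had 78.9 and 72.4 RPKM in TPA and 9.68 and 9.97 RPKM in control. CEBPA fell to 1.57 and 2.23 RPKM in TPA, against 4.41 and 5.15 RPKM in control, and NFKB1 fell with a log2 fold change of -0.81. Of 12 tested among 19, 3 rose, 2 fell and 7 did not pass (41.7% passed, against 58.2% of all genes), with a median of 0.09, while 5 rose and 2 fell after median-of-ratios scaling. With no filter the median was -0.01.

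Among genes that remove superoxide and peroxide, more of those tested fell than rose. Of 20 tested among 23, 2 rose, 8 fell and 10 did not pass, against 58.2% of all genes passing and 29.8% falling, with a median log2 fold change of -0.34. With no filter 5 fell and the median was -0.21. The 12 reference genes, by comparison, had a median of -0.48, and 7 of them fell. PRDX1, a peroxiredoxin, had 294 and 357 RPKM in TPA and 682 and 782 RPKM in control. TXNRD1, the cytosolic thioredoxin reductase, had 48.7 and 56.3 RPKM in TPA and 104 and 110 RPKM in control. HMOX1, haem oxygenase, had 2.09 and 1.22 RPKM in TPA and was listed at 0 in both control libraries, so it was tested only through the TPA libraries. TXN2, the mitochondrial thioredoxin, rose with a log2 fold change of 0.58.

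**Figure D4:**
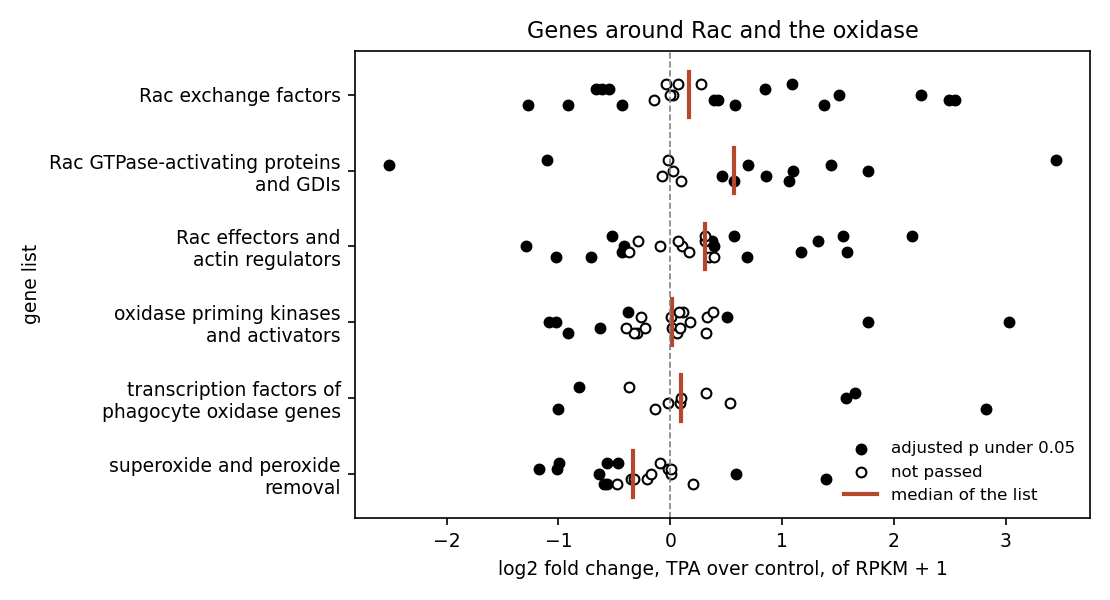
Log2 fold change of RPKM + 1, TPA over control, for each tested gene of 6 lists around Rac and the oxidase; filled points passed at an adjusted p under 0.05 and red lines mark list medians. The median lies highest for GTPase-activating proteins and GDIs (0.57) and lowest for superoxide and peroxide removal (-0.34).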

How the data were processed

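The authors deposited 1 table of RPKM values (per the file headers; reads scaled by gene length and sequencing depth), with 1 RefSeq accession, symbol and cytogenetic band for each gene. CASAVA 1.8, Bowtie 1.12, TopHat, SAMtools and HOMER and the build hg19 are named in the submitters' processing notes without roles. Libraries were grouped by their titles; the labels do not say whether replicates were separate cultures, so the p-values reflect the spread among these 4 libraries, some or all of which may be technical.

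Count models were not applied, since RPKM is already normalized. The 12159 genes that reached 1 RPKM in 2 or more libraries were tested on the log2(RPKM + 1) scale with limma 3.58.1 under R 4.3.3 (empirical Bayes with a trend, 5.88 prior and 2 residual degrees of freedom, two-sided p-values, Benjamini-Hochberg). The fit was also run on simulated data, with far fewer changed genes than were called here and with spreads shuffled among genes. No support is drawn from that run. The absolute depth is unknown, so no counting interval is given. The 9 genes, the lists and the rule for named genes (all 9 genes, list members with the 2 smallest p-values in each direction, partners, markers and neighbours) were chosen with earlier results of these data known; AKT1, VAV1, ARHGDIB, PRKCB, PRKCD and SPI1 were named after their values were seen. Alternatives were pseudocounts of 0.1 and 0.5, quantile normalization, median-of-ratios scaling, no filter and one at 5 RPKM, no trend, robust estimation, adjusted p thresholds of 0.01 and 0.1, the replicate number as a block, and each library left out. Figures were drawn with matplotlib 3.10.9. Results of 1 gene and of 1 list are not reported here.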

Additional observations from a re-analysis of the deposited data

How the results depend on the processing

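The rise of RAC2 passed under every alternative run, with log2 fold changes between 1.04 and 1.20. RAC1 kept its direction but lost its call with no filter (log2 fold change -0.40, adjusted p = 0.0857), and it ranged over -0.53 to -0.28 with 1 library left out. NCF4 passed after quantile normalization only, at 0.37, so that 2 of the 9 genes then rose. The number that fell was 0 with no filter and 0 at an adjusted p threshold of 0.01 (where limma still called 1 rise), and 0 to 1 with a library left out; the cause was not tested. When a control library was left out, limma estimated infinite prior degrees of freedom, so those p-values are not comparable with the others. Over the values recomputed for the 4 tested genes, the ratio of RAC2 to RAC1 and the counts over all genes, none reversed. A group reduced to 1 library is assumed to vary like the other.

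Replicate numbers were not shown to pair the libraries: same-numbered libraries deviated together with a correlation of 0.361 across genes, but only 2 pairs exist. With the replicate number as a block, 3946 genes rose and 4288 fell, against 3454 and 3621 without it, and RAC1 had an adjusted p of 0.00382; no call among the 4 tested genes changed. Under the block 10 of the priming kinases fell, against 5, and 13 of the Rac effectors rose, against 9. With 2 libraries a group, small changes of CYBA and NCF4 were not detectable, and the values of CYBB, NCF1 and NOX1 are too low to compare.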

Other observations

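Protein-coding genes next to the oxidase and Rac genes, by order in the RefSeq annotation, had values of their own. For scale, 58.2% of all genes tested passed, in either direction. Beside CYBB, DYNLT3, SYTL5 and LANCL3 were listed at 0 in all 4 libraries, and XK had 0.008 and 0.018 RPKM in TPA and 0.495 and 0.744 RPKM in control. Beside RAC2, CYTH4, an exchange factor for Arf GTPases, rose to 3.89 and 2.66 RPKM in TPA, against 0.120 and 0.233 RPKM in control. C1QTNF6, also beside RAC2, rose with a log2 fold change of 1.09. SSTR3 and ELFN2 on the same flanks were not tested. ELFN2 had 0.047 and 0.089 RPKM in TPA and 0.927 and 0.22 RPKM in control. Beside RAC1, KDELR2 fell with a log2 fold change of -1.08, and FAM220A and DAGLB did not pass. Beside NCF4, CSF2RB, the shared receptor chain for several cytokines, rose to 10.7 and 12.1 RPKM in TPA, against 7.75 and 7.21 RPKM in control. IFT27 rose with a log2 fold change of 0.84. Beside CYBA, MVD and ZC3H18 fell with log2 fold changes of -0.64 and -0.39, SNAI3 rose with 0.72, and IL17C was too low to test. Beside NCF1, GTF2IRD1 rose with a log2 fold change of 0.41, and GTF2I did not pass. CSTF2 beside NOX1 and ANP32A beside NOX5 fell, with log2 fold changes of -0.69 and -0.74. GLCE, also beside NOX5, did not pass, and no gene beside NOX4 was tested. SNAI3, CYTH4 and C1QTNF6 reached the filter in the TPA libraries alone.

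Among 12 reference genes 1 rose, 7 fell and 4 did not pass. ACTB did not pass, with 1625 and 1724 RPKM in TPA and 1769 and 1671 RPKM in control. Of 11 T and NK cell markers 1 was tested, NKG7, which fell with a log2 fold change of -0.82. Of 10 erythroid and megakaryocyte markers 1 was tested, GP9, which did not pass.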
